A study of Mus musculus with 6 samples.

Results

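The 10 genes described here encode the MLL histone methyltransferase, its cofactors and the elongation machinery that MLL fusions bring to their target genes: Kmt2a, Men1, Psip1, Mllt1, Mllt3, Dot1l, Aff1, Aff4, Cdk9 and Ell. They were chosen by gene symbol, and all 10 were among the 11644 genes measured. The cells were MLL-ENL/NrasG12D mouse leukemia cells, which in both groups carry a fusion of MLL with ENL and a mutant, signalling-active Nras. The 3 control libraries came from cells given DMSO, the solvent, and the 3 others from cells given 5 µM EPZ015666, a small molecule that inhibits the arginine methyltransferase PRMT5 (the group labelled Prmt5i). RNA was taken after 72 h, with the treatment repeated on day 2, and polyadenylated transcripts were sequenced. The comparison asks which transcripts differ in these cells when PRMT5 is inhibited. The series text calls the replicates independent without saying that they were separate cultures, and the labels do not say how the fusion was introduced or whether the line is 1 clone, so p-values measure the spread between these libraries, which may be technical.

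MLL, encoded by Kmt2a, methylates histone H3 near promoters and is tethered to chromatin through menin and LEDGF. In leukemia a chromosome break joins its first part to a partner, most often a protein of the transcription elongation machinery such as ENL, AF9, AF4 or ELL. These partners sit with the kinase P-TEFb in the super elongation complex, which releases paused RNA polymerase II, and ENL and AF9 also bind the histone methyltransferase DOT1L. The fused proteins keep genes such as Hoxa9 and Meis1 active in immature myeloid cells.

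The libraries held between 11335948 and 19197912 reads assigned to genes, and each member had at least 150 of them in every library. All 12 listed myeloid markers were measured. Their summed normalized counts were 18800.3 to 21025 in the DMSO libraries and 33769 to 38245 in the others. Not every marker followed this sum. In libraries 1, 2 and 3, Mpo had 1438, 371 and 731 normalized counts with DMSO and 408, 292 and 327 with the inhibitor. The groups overlapped, and Mpo passed the test below as lower (log2 fold change -1.11, limma adjusted p = 0.0215). Of the markers of other cell types, none of 7 erythroid, 2 of 8 T-cell, 1 of 6 B-cell, 2 of 6 megakaryocyte, 1 of 7 stromal and 2 of 5 endothelial genes were among the genes of the table. The T-cell pair (Lck and Il7r) summed to 244 to 283 in DMSO and 838 to 874 with the inhibitor, and the megakaryocyte pair (Itga2b and Gp9) to 9.78 to 17.7 and 32.7 to 54.5. The B-cell gene (Cd79b) had 24.5 to 28.5 and 12.3 to 22.6, the stromal gene (Pdgfrb) 3.23 to 10.6 and 3.23 to 7.15, and the endothelial pair (Cdh5 and, for nearly all of the sum, Pecam1, which leukocytes also express) 3007 to 3633 and 3575 to 3989. The defining markers of each of these other types, apart from those named, were not among the genes of the table. The part of these shifts in the results below was not tested, and in bulk RNA fewer cells of a type and less RNA per cell cannot be told apart. DMSO library 2 stood apart for stress genes, with Ddit3 at 1378 normalized counts against 171 and 237 in DMSO libraries 1 and 3. Without this library 8 members passed the test below. The share of all genes that passed was 45.9% without it and 46.5% with all libraries. Prmt5 itself had means of 2784 ± 366 (DMSO) and 2508 ± 373 (inhibitor; SD over 3 libraries each), which does not check the inhibition because the compound acts on the enzyme.

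Of the 10 members, 7 passed the test, in both directions: Psip1, Cdk9, Mllt3 and Mllt1 fell, Aff1, Kmt2a and Aff4 rose, and Men1, Dot1l and Ell did not pass. These calls are for single genes at a Benjamini-Hochberg adjusted p under 0.05 in a limma fit over all genes. Over all 11644 genes 46.5% passed, 23.6% higher and 22.9% lower, and 48.8% passed among the 9100 genes with a mean of at least 100 normalized counts, so a call on a single member is common in this comparison. The 2 groups of libraries did not overlap for 6 of the 10 members, against 56.0% of all genes. Under the further condition of a 1.5-fold difference of the fitted values, Psip1 alone passed, against 22.1% of all genes. The members' median log2 fold change was -0.14, beside 0.0012 over all genes.

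**Figure D1:**
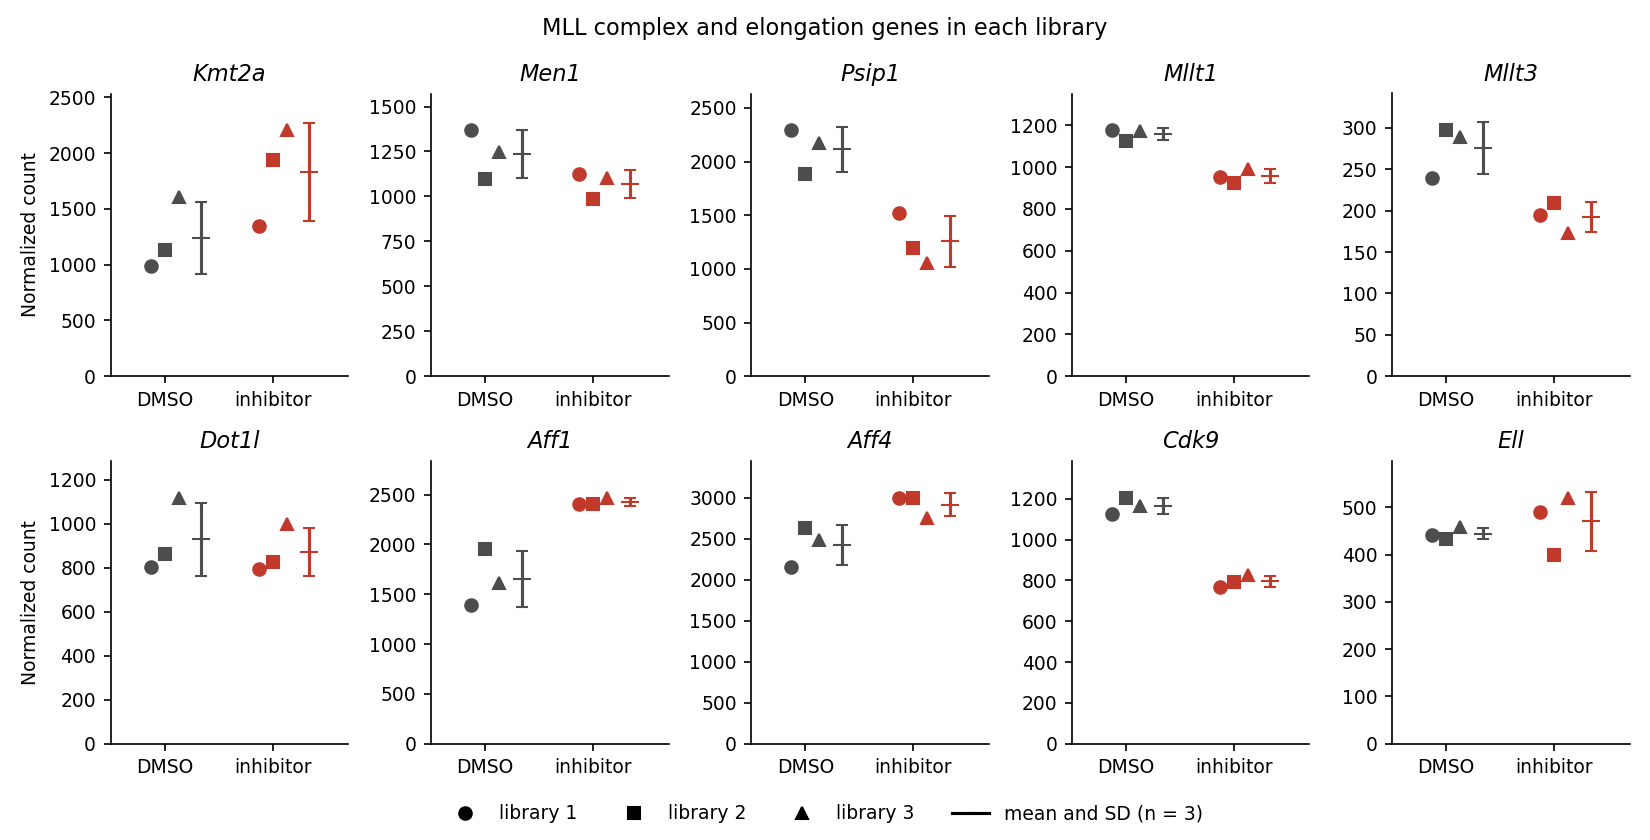
Normalized counts (vertical axis, from 0) of the 10 genes in each of the 6 libraries, with DMSO in grey and the inhibitor in red, marker shape giving the library number, and the mean with its SD (n = 3) beside the points. Psip1, Cdk9, Mllt1 and Mllt3 lie lower and Aff1 and Aff4 higher with the inhibitor without overlap, while Kmt2a is higher on average with overlapping libraries.

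Kmt2a (ENSMUSG00000002028.13; mm10, chromosome 9, 44803355 to 44881296, minus strand) encodes MLL, the protein whose first part is kept in every MLL fusion. Its normalized counts were 986, 1133 and 1603 in DMSO libraries 1, 2 and 3, and 1351, 1942 and 2205 in inhibitor libraries 1, 2 and 3. DMSO library 3 lay above inhibitor library 1, so the groups overlapped although the inhibitor mean was higher. The mean rose 1.48-fold, from 1241 ± 322.5 to 1833 ± 437 (SD, n = 3 per group), with a log2 fold change of 0.56 ± 0.19 (SE; 95% confidence interval 0.15 to 0.97; limma adjusted p = 0.0277). The call was lost without DMSO library 1 (log2 fold change 0.41, limma adjusted p = 0.105), inhibitor library 2 (0.51, 0.112) or inhibitor library 3 (0.42, 0.115). DESeq2 on the recovered reads did not make it either (adjusted p = 0.109).

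Kmt2a has a longest annotated transcript of 16470 bases, and long transcripts differed between libraries of a group. The 493 genes with a transcript of 8000 bases or more and a mean of at least 100 had median log2 deviations from the group mean of -0.065, -0.053 and 0.099 in DMSO libraries 1, 2 and 3, while Kmt2a deviated by -0.30, -0.10 and 0.40. In inhibitor libraries 1, 2 and 3 the medians were -0.019, 0.040 and -0.024, and Kmt2a deviated by -0.41, 0.11 and 0.30. Between the groups these long-transcript genes had a median log2 fold change of -0.11. The other risen members, Aff4 and Aff1, also belong to this class, with longest transcripts of 10099 and 8323 bases. Those of the fallen members are 3251 (Psip1) to 6069 bases (Mllt3). The part of transcript length in the rises and falls of the members was not tested. Reads from the fusion transcript may be counted under Kmt2a or Mllt1, and the gene-level table does not separate them from those of the normal genes. An antisense gene, AC061963.1, shares 378 bases of exon with Kmt2a, or 2.27% of its exon sequence, and the strand setting of the counting is not given in the sources used here.

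The 250 bases before the RefSeq start of Kmt2a are shown because MLL itself binds unmethylated CpG pairs through its CXXC domain. Capitals mark each CpG in this and the following windows, which are given 5′ to 3′ on the gene's strand from the RefSeq table of GRCm38.p6.
Kmt2a, chr9:44881290-44881539, minus strand: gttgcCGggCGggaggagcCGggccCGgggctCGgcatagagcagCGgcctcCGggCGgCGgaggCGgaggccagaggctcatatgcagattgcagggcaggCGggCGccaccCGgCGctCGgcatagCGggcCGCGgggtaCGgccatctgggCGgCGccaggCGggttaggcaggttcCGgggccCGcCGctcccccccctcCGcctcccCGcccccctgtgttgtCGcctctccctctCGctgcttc
This window, whose last 7 bases are annotated exon, holds 29 CpG, more than 93.2% of the 32851 windows of that table hold, where the median was 6. It was also searched on both strands for the GC box (GGGCGG), the CCAAT box (CCAAT), the MYC-type E-box (CACGTG), an ETS core (CCGGAAG), a cyclic AMP element (TGACGTCA), an NRF1 motif and a TATA box (TATAAA). Any CpG inside a motif is counted in both. It held 4 GC boxes, a motif found in 32.7% of all windows, and none of the others. Such matches describe letters in the window, not bound sites.

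Men1 (ENSMUSG00000024947.17; chromosome 19, 6334979 to 6340891, plus strand) encodes menin, the adaptor that holds MLL and its fusions on chromatin. It stood at 1367, 1099 and 1246 normalized counts in DMSO libraries 1, 2 and 3 and at 1127, 983 and 1102 in the inhibitor libraries. Inhibitor libraries 1 and 3 lay above DMSO library 2, so the groups overlapped. The means were 1238 ± 134 and 1071 ± 76.8, and the log2 fold change of -0.21 ± 0.098 (95% confidence interval -0.42 to 0.0077) did not pass (limma adjusted p = 0.104). Without DMSO library 2 it passed, at a log2 fold change of -0.29 (limma adjusted p = 0.0268).

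Psip1 (ENSMUSG00000028484.16; chromosome 4, 83455680 to 83486459, minus strand) encodes LEDGF, a reader of methylated histone H3 that binds menin and MLL together. DMSO libraries 1, 2 and 3 had 2290.2, 1880.1 and 2174 normalized counts, and inhibitor libraries 1, 2 and 3 had 1520.0, 1190.0 and 1058. All inhibitor libraries lay below all DMSO libraries. The mean went from 2115 ± 211 down to 1256 ± 238, a 1.68-fold fall, and the log2 fold change of -0.76 ± 0.13 (95% confidence interval -1.04 to -0.49; limma adjusted p = 0.000464) was the largest in size among the 10 members. Psip1 shares 483 bases of exon, or 9.50% of its exon sequence, with Snapc3 on the opposite strand. Snapc3, a subunit of the snRNA activating complex, had 213 ± 26.2 and 226 ± 42.6 normalized counts and did not pass (limma adjusted p = 0.707), with a log2 fold change whose sign turned when some libraries were left out.

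The subunits that MLL shares with its relatives, other cofactors and the related genes themselves were given by a list of 17 genes, all measured. Of these, 4 fell, 2 rose and 11 did not pass, with a median log2 fold change of -0.0021 beside 0.0012 over all genes. The shares over all genes to set beside this and the following lists are 22.9% lower and 23.6% higher. Ash2l, a core subunit that stimulates the methyltransferase, fell from 1822 ± 52.5 to 1285 ± 161 (limma adjusted p = 0.00113), and Hcfc1, a chromatin adaptor, from 4462 ± 692 to 3240 ± 90.1 (0.00454). Dpy30, which docks on Ash2l, rose from 775 ± 64.1 to 1079 ± 207 (limma adjusted p = 0.0121), which missed the threshold when inhibitor library 2 was left out (0.0596). Kat7, a histone acetyltransferase, went from 2286 ± 81.8 to 1934 ± 186 (limma adjusted p = 0.0363) and was not called without DMSO library 1 (0.117), DMSO library 3 (0.0859), inhibitor library 2 (0.145) or inhibitor library 3 (0.0943). The 2 rises became 5 without DMSO library 3, 1 without DMSO library 1 or inhibitor library 3 or with edgeR or DESeq2, and 0 without inhibitor library 2, and the 4 falls became 2 without DMSO library 1, DMSO library 3 or inhibitor library 2. Kmt2d, a large methyltransferase of the same family, had 1586 ± 575 and 2169 ± 519 and did not pass (limma adjusted p = 0.0846). It passed without DMSO library 3 (log2 fold change 0.76, limma adjusted p = 0.00273) or without inhibitor library 1 (0.65, 0.0431).

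Mllt1 (ENSMUSG00000024212.9; chromosome 17, 56892611 to 56935415, minus strand) encodes ENL, the partner fused to MLL in these cells and a YEATS-domain reader of acylated histones. It had 1176, 1123 and 1172 normalized counts in DMSO libraries 1, 2 and 3 and 954, 923 and 991 in inhibitor libraries 1, 2 and 3. Every inhibitor library lay below every DMSO library, in a narrow range within each group. The mean fell 1.21-fold, from 1157 ± 29.5 to 956 ± 34.2 (SD, n = 3 per group), with a log2 fold change of -0.28 ± 0.078 (95% confidence interval -0.44 to -0.11; limma adjusted p = 0.0125). Without inhibitor library 2 the call was lost (log2 fold change -0.25, limma adjusted p = 0.0570).

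Mllt3 (ENSMUSG00000028496.17; chromosome 4, 87769925 to 88033364, minus strand) encodes AF9, the close relative of ENL with the same YEATS domain. Its levels were 239.7, 297 and 289.6 normalized counts in DMSO libraries 1, 2 and 3 and 195, 209.8 and 173 in the inhibitor libraries. The groups did not overlap, and DMSO library 1 was the nearest to the inhibitor libraries. The mean fell 1.43-fold, from 275 ± 31.2 to 193 ± 18.4, with a log2 fold change of -0.51 ± 0.13 (95% confidence interval -0.79 to -0.23; limma adjusted p = 0.00649). Within a library Mllt1 had 4.91, 3.78 and 4.05 times the normalized count of Mllt3 in DMSO libraries 1, 2 and 3, and 4.89, 4.4 and 5.72 times in the inhibitor libraries. The log2 ratio differed by 0.24 between the groups, which overlapped (exact two-sided permutation p = 0.30, adjusted over 6 ratios 0.36), so a difference between the falls of the paralogues was not shown. It was 0.14 without inhibitor library 3, 0.16 without DMSO library 2 and 0.34 without DMSO library 1.

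The windows of these fallen paralogues are shown beside each other because their CpG content differs.
Mllt1, chr17:56935389-56935638, minus strand: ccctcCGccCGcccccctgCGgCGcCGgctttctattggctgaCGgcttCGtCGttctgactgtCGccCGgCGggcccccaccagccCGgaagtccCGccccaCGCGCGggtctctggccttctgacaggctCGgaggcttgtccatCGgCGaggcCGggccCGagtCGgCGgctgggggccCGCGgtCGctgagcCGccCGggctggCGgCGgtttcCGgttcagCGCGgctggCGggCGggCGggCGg
Mllt3, chr4:88033408-88033657, minus strand: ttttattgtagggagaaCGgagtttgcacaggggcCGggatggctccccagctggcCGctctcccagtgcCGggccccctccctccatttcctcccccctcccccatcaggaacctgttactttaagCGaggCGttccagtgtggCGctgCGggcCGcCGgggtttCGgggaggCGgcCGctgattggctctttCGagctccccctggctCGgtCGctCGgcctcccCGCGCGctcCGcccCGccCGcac
The Mllt1 window holds 37 CpG, more than 97.8% of all windows, with 7 GC boxes, 1 CCAAT box and 1 ETS core, the last found in 6.91% of all windows. The Mllt3 window, before the first of 2 RefSeq starts, holds 23 CpG, more than 86.7% of all windows, with 2 GC boxes and 1 CCAAT box, a motif in 33.8% of all windows. The window before the second Mllt3 start, not shown, holds 4 CpG, more than 37.8% of all windows, and 2 CCAAT boxes. Which start these cells use was not tested. The last 27 bases of the Mllt1 window are annotated exon.

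Dot1l (ENSMUSG00000061589.14; chromosome 10, 80755206 to 80795461, plus strand) encodes the methyltransferase that marks the body of transcribed genes on the globular part of histone H3 and that ENL and AF9 bind. It had 805, 864 and 1117 normalized counts in DMSO libraries 1, 2 and 3 and 793, 828 and 998 in the inhibitor libraries. The groups overlapped, and library 3 was the highest in both. The means were 929 ± 166 and 873 ± 110 (SD, n = 3 per group), and the log2 fold change of -0.082 ± 0.13 did not pass (95% confidence interval -0.36 to 0.20; limma adjusted p = 0.621). Its sign turned without DMSO library 3 (0.059, limma adjusted p = 0.726). An antisense gene, Gm17151, lies within Dot1l without sharing exon bases.

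Other MLL fusion partners and DOT1L partners were taken from a list of 27 genes, of which 26 were measured. Of these, 9 fell, 5 rose and 12 did not pass, with a median log2 fold change of 0.024. Mllt10, which encodes AF10, a cofactor of DOT1L, fell from 1601 ± 36.7 to 1114 ± 34.3 normalized counts (limma adjusted p = 0.000193). Mllt6, which encodes its relative AF17 and was chosen after its values were seen, fell from 1122 ± 160.4 to 823 ± 50.1 (limma adjusted p = 0.00523). Gas7, a cytoskeletal adaptor, rose 7.86-fold, from 27.9 ± 4.0 to 219.8 ± 34.5 (limma adjusted p = 3.60e-07). Tet1, a 5-methylcytosine oxidase, fell 4.06-fold, from 108 ± 16.8 to 26.7 ± 3.53, and Casc5, a kinetochore scaffold, fell 1.86-fold, from 3346 ± 310 to 1795 ± 122 (limma adjusted p = 1.42e-05 and 1.50e-05).

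Aff1 (ENSMUSG00000029313.18; chromosome 5, 103692374 to 103855322, plus strand) encodes AF4, a scaffold of the super elongation complex. It had 1391, 1956 and 1617 normalized counts in DMSO libraries 1, 2 and 3 and 2404, 2404 and 2468 in inhibitor libraries 1, 2 and 3. The DMSO libraries were spread and the inhibitor libraries close together, and all inhibitor libraries lay above all DMSO libraries. The mean rose 1.47-fold, from 1655 ± 284 to 2425 ± 36.9 (SD, n = 3 per group), with a log2 fold change of 0.57 ± 0.11 (95% confidence interval 0.32 to 0.81; limma adjusted p = 0.00142). The highest DMSO value was that of DMSO library 2.

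Aff4 (ENSMUSG00000049470.13; chromosome 11, 53350833 to 53421830, plus strand) encodes the other main scaffold, AF5q31, which holds P-TEFb, ELL and ENL or AF9. Its levels were 2152, 2633 and 2478 normalized counts in DMSO libraries 1, 2 and 3 and 2996, 2998 and 2753 in the inhibitor libraries. Inhibitor library 3 was close to DMSO library 2, but the groups did not overlap. The mean rose 1.20-fold, from 2421 ± 246 to 2916 ± 141, with a log2 fold change of 0.27 ± 0.091 (95% confidence interval 0.073 to 0.47; limma adjusted p = 0.0285). This call was lost without DMSO library 1 (log2 fold change 0.19, limma adjusted p = 0.138), DMSO library 3 (0.29, 0.0552), inhibitor library 1 (0.25, 0.0677) or inhibitor library 2 (0.25, 0.105), and edgeR on the recovered reads gave an adjusted p of 0.0509.

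Within a library the ratio of Aff1 to Aff4 was 0.647, 0.743 and 0.652 in DMSO libraries 1, 2 and 3 and 0.802, 0.802 and 0.896 in the inhibitor libraries. The log2 ratio was higher by 0.29 with the inhibitor and the groups did not overlap, at an exact two-sided permutation p of 0.10, the smallest that 3 against 3 libraries allow (adjusted over 6 ratios 0.20). The third measured gene of this family, Aff3, had 906 ± 123.4 and 787 ± 36.5 normalized counts and did not pass (limma adjusted p = 0.151), although it did, and lower, without DMSO library 2 (log2 fold change -0.31, limma adjusted p = 0.0155). The windows of the risen paralogues are shown for comparison with each other.
Aff1, chr5:103753912-103754161, plus strand: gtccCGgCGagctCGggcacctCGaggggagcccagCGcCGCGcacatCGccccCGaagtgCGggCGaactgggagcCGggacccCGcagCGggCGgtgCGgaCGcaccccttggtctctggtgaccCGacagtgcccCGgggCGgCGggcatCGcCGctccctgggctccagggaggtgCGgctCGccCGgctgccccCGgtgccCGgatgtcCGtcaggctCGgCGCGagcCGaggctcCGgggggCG
Aff4, chr11:53350517-53350766, plus strand: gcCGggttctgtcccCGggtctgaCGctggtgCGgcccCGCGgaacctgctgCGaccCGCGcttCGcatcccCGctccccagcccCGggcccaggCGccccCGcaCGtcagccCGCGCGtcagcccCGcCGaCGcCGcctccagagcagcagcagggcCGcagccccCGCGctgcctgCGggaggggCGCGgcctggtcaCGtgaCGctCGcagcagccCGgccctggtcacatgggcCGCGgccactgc
These windows hold 35 and 34 CpG, more than 97.0% and 96.5% of all windows. The Aff1 window, before the first of 2 RefSeq starts, held 2 GC boxes, and the Aff4 window held none and 1 E-box, a motif in 6.02% of all windows. The window before the second Aff1 start, not shown, held 20 CpG, more than 82.1% of all windows, and 3 GC boxes. The Aff1 window shown lies inside the GENCODE gene, which has an earlier start, but outside its exons.

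**Figure D2:**
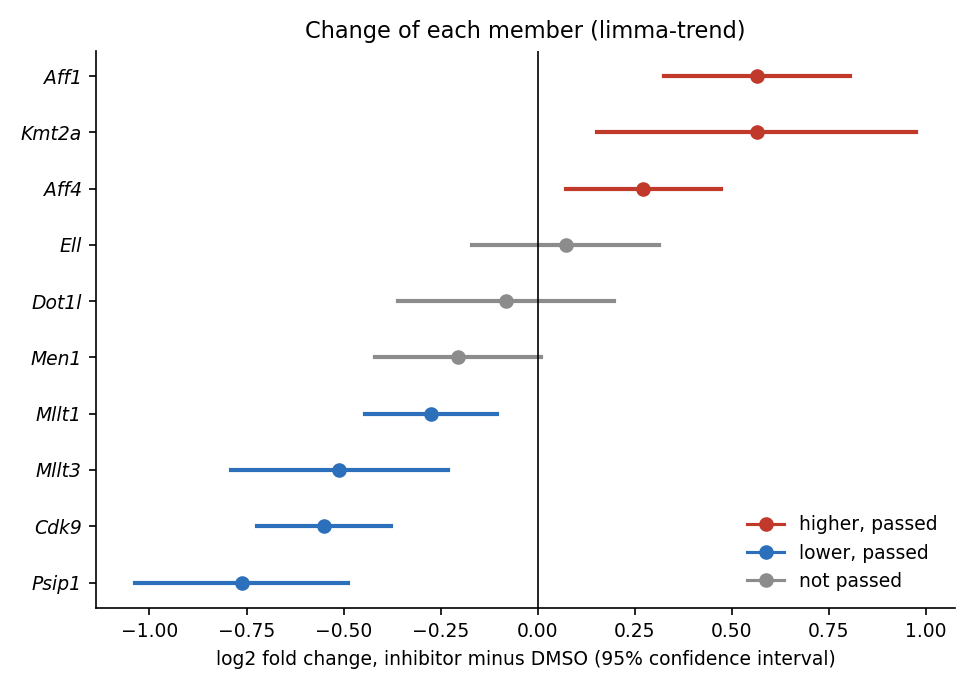
Log2 fold change of each of the 10 genes, inhibitor minus DMSO (horizontal axis), with its 95% confidence interval from limma; red and blue mark genes that passed higher and lower, grey those that did not pass. Aff1 and Kmt2a have similar changes, 0.57 and 0.56, but the interval of Kmt2a is the wider, and Psip1 lies lowest at -0.76.

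Cdk9 (ENSMUSG00000009555.16; chromosome 2, 32705784 to 32713076, minus strand) encodes the kinase of P-TEFb, which phosphorylates RNA polymerase II and the pausing factors. It had 1127, 1204 and 1163 normalized counts in DMSO libraries 1, 2 and 3 and 767, 794 and 824 in the inhibitor libraries. The groups were far apart for their spread. The mean fell 1.46-fold, from 1165 ± 38.9 to 795 ± 28.6 (SD, n = 3 per group), and the log2 fold change of -0.55 ± 0.079 (95% confidence interval -0.72 to -0.38) had the smallest adjusted p among the 10 members (limma adjusted p = 0.000189). The microRNA genes Mir2861 and Mir3960 lie in the exon sequence of Cdk9 on the same strand, over 82 and 73 bases.

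The cyclins that pair with this kinase did not pass: Ccnt1 had 1066 ± 19.2 and 1104 ± 31.1 normalized counts (limma adjusted p = 0.610), and Ccnt2 968 ± 128 and 898 ± 144 (0.484). The log2 ratio of Ccnt1 to Ccnt2 differed by 0.16 between overlapping groups (exact two-sided permutation p = 0.60, adjusted over 6 ratios 0.60), and by 0.031 without inhibitor library 1, 0.043 without DMSO library 3 and 0.27 without inhibitor library 3. Hexim1, the protein that inhibits P-TEFb in its inactive particle, had 725 ± 29.0 and 767 ± 9.21 and did not pass either (limma adjusted p = 0.431). The ratio of Cdk9 to Hexim1 was 1.49, 1.67 and 1.67 in DMSO libraries 1, 2 and 3 and 0.993, 1.05 and 1.07 in the inhibitor libraries. Its log2 value was lower by 0.63 with the inhibitor, a log2 difference of -0.63, without overlap (exact two-sided permutation p = 0.10, adjusted 0.20). The 3 genes with the pattern most like that of Cdk9 over the 6 libraries, by Pearson r of log2 values among 9099 other genes with a mean of at least 100, were Nr1d2 (r = 0.999), H2-D1 (0.998) and Fam3a (0.998); these points share their libraries and the group difference.

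Among the 11 genes that hold back, free or recruit P-TEFb or encode related kinases, 2 fell, 1 rose and 8 did not pass, with a median log2 fold change of 0.058. Mepce, the capping enzyme of the inhibitory RNA, fell from 1085 ± 57.7 to 763 ± 98.2 (limma adjusted p = 0.00158), and Brd3, a bromodomain protein, from 1124 ± 109 to 854 ± 16.3 (0.00389). Jmjd6, a dioxygenase, rose from 728 ± 46.0 to 1022 ± 81.8 (limma adjusted p = 0.00109). Cdk13, a kinase of later elongation, had 2291 ± 128 and 2474 ± 78.4 (limma adjusted p = 0.262). Without DMSO library 3 the risen genes numbered 2.

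Ell (ENSMUSG00000070002.7; chromosome 8, 70539457 to 70592858, plus strand) encodes an elongation factor that keeps polymerase II moving. It had 442, 433 and 458 normalized counts in DMSO libraries 1, 2 and 3 and 490.3, 399.9 and 519.8 in the inhibitor libraries, which spanned the DMSO values. The means were 444 ± 12.2 and 470.0 ± 62.5, and the log2 fold change of 0.072 ± 0.11 did not pass (95% confidence interval -0.17 to 0.31; limma adjusted p = 0.613). Its sign turned without inhibitor library 3 (-0.0045, limma adjusted p = 0.979). Its paralogue Ell2 had 324, 545 and 385 in DMSO and 587, 660.0 and 554 with the inhibitor, and rose 1.44-fold (limma adjusted p = 0.0142). Ell2 no longer passed without DMSO library 1 (0.0561) or inhibitor library 2 (0.0743), and DMSO library 2 was the highest of its group. The log2 ratio of Ell to Ell2 differed by -0.48 between overlapping groups (exact two-sided permutation p = 0.30, adjusted over 6 ratios 0.36). It was -0.30 without inhibitor library 2, -0.32 without DMSO library 1 and -0.71 without DMSO library 2.

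Of 11 other genes of the super elongation complex, AF4 family and ELL-associated factors, 9 were measured, of which 3 fell, 2 rose and 4 did not pass. Their median log2 fold change was -0.11. Eaf1, a partner of ELL, rose 1.58-fold, from 1386 ± 94.1 to 2196 ± 150.3 (limma adjusted p = 8.70e-05). Ice2, Zc3h8 and Ice1 encode factors that work with ELL in the little elongation complex, which serves small nuclear RNA genes; Ell itself did not pass. Ice2 fell from 678 ± 13.1 to 507 ± 37.3 (limma adjusted p = 0.00247), Zc3h8 from 271 ± 62.7 to 176 ± 19.6 (0.00891) and Ice1 from 1852 ± 165 to 1480.0 ± 41.2 (0.00904). Ice1 missed the threshold when DMSO library 3 was left out (limma adjusted p = 0.0549), and 1 gene in place of 2 rose without DMSO library 1 or inhibitor library 2.

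The factors that pause polymerase II and follow it into the gene were given by a list of 21 genes, all measured: 8 fell, 3 rose and 10 did not pass, with a median log2 fold change of -0.19. All 4 subunits of NELF, the negative elongation factor that P-TEFb acts on, were among the falls, beside 22.9% of all genes. This subset was chosen after its values were seen. Nelfe fell from 874 ± 58.6 to 515 ± 54.4 normalized counts (limma adjusted p = 9.58e-05), Nelfcd from 1259 ± 111 to 789.7 ± 50.3 (0.000137), Nelfa from 959 ± 17.5 to 703 ± 93.5 (0.00300) and Nelfb from 1371 ± 63.2 to 1109.8 ± 21.4 (0.00712). Supt5, the large subunit of DSIF and a known substrate of PRMT5, had 2914 ± 143 and 2561 ± 248 and did not pass (limma adjusted p = 0.101), but did, and lower, without inhibitor library 1 (log2 fold change -0.27, limma adjusted p = 0.0232). Its partner Supt4a went from 1072 ± 105 to 1434 ± 227 (limma adjusted p = 0.0123), a rise that was not called without DMSO library 3 (0.0547). Without DMSO library 3 or inhibitor library 2, 1 gene of the list rose in place of 3.

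In the PAF1 complex, which travels with polymerase II and which MLL binds, 1 of 6 subunits fell, 1 rose and 4 did not pass. The Ctr9 row, named for its scaffold subunit, had a mean of 30447 ± 671 in DMSO and fell 1.74-fold to 17533 ± 1881 with the inhibitor (limma adjusted p = 0.000199). This level lies far above the DMSO means of 240.2 to 1243 of the other subunits, and whether all of its reads come from Ctr9 mRNA was not tested. Cdc73, or parafibromin, rose from 240.2 ± 40.5 to 349 ± 53.0 (limma adjusted p = 0.00968), but not beyond the threshold without inhibitor library 2 (0.0606).

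**Figure D3:**
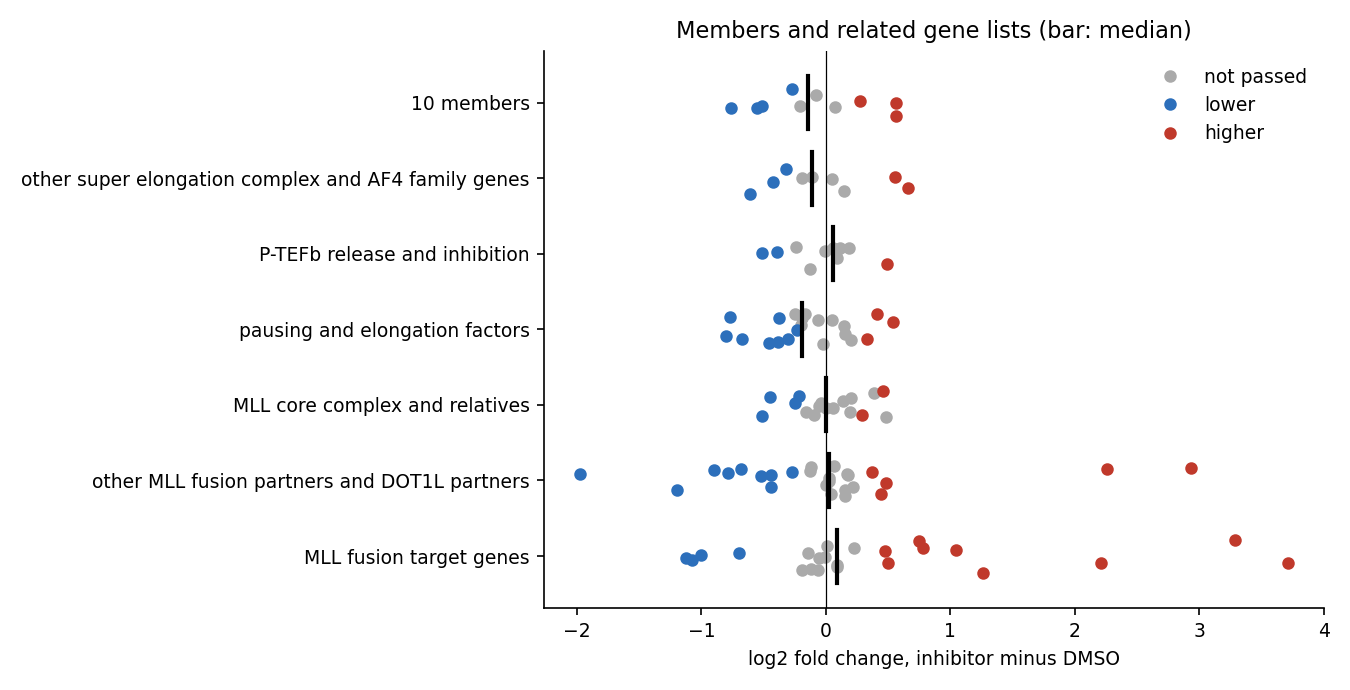
Log2 fold change, inhibitor minus DMSO (horizontal axis), of each measured gene of the 10 members and of the 6 related lists (rows, with points spread vertically for legibility), coloured by whether it passed; a black bar marks each list's median. Passing genes lie on both sides of 0 in every list, and the medians lie between -0.19 and 0.086.

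Levels of different members were compared per kilobase of annotated exon. In DMSO the order was Psip1 (416 ± 41.6 normalized counts per kb), Men1 (323 ± 34.97), Mllt1 (295 ± 7.54), Cdk9 (253 ± 8.43), Aff4 (180.0 ± 18.3), Aff1 (175 ± 30.1), Ell (143 ± 3.92), Dot1l (107 ± 19.1), Kmt2a (74.4 ± 19.3) and Mllt3 (22.9 ± 2.60; SD, n = 3 libraries). The libraries overlapped between the neighbours Men1 and Mllt1, Aff4 and Aff1, Aff1 and Ell, and Dot1l and Kmt2a in that order. With the inhibitor the highest were Men1 (279 ± 20.0), Aff1 (256 ± 3.90), Psip1 (247 ± 46.8) and Mllt1 (244 ± 8.72), and each of these overlapped its neighbour. Aff4 (217 ± 10.5), Cdk9 (172 ± 6.20), Ell (151 ± 20.1), Kmt2a (109.9 ± 26.2), Dot1l (100.2 ± 12.6) and Mllt3 (16.1 ± 1.53) followed, with overlap between Cdk9 and Ell, Ell and Kmt2a, and Kmt2a and Dot1l. Psip1 thus went from the first place to the third and Aff1 from the sixth to the second, as a description of these means. This depends on the length used: per kilobase of the longest transcript Psip1 stayed first (650.5 ± 65.0 and 386 ± 73.2) and Aff1 went from the sixth place to the third.

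**Figure D4:**
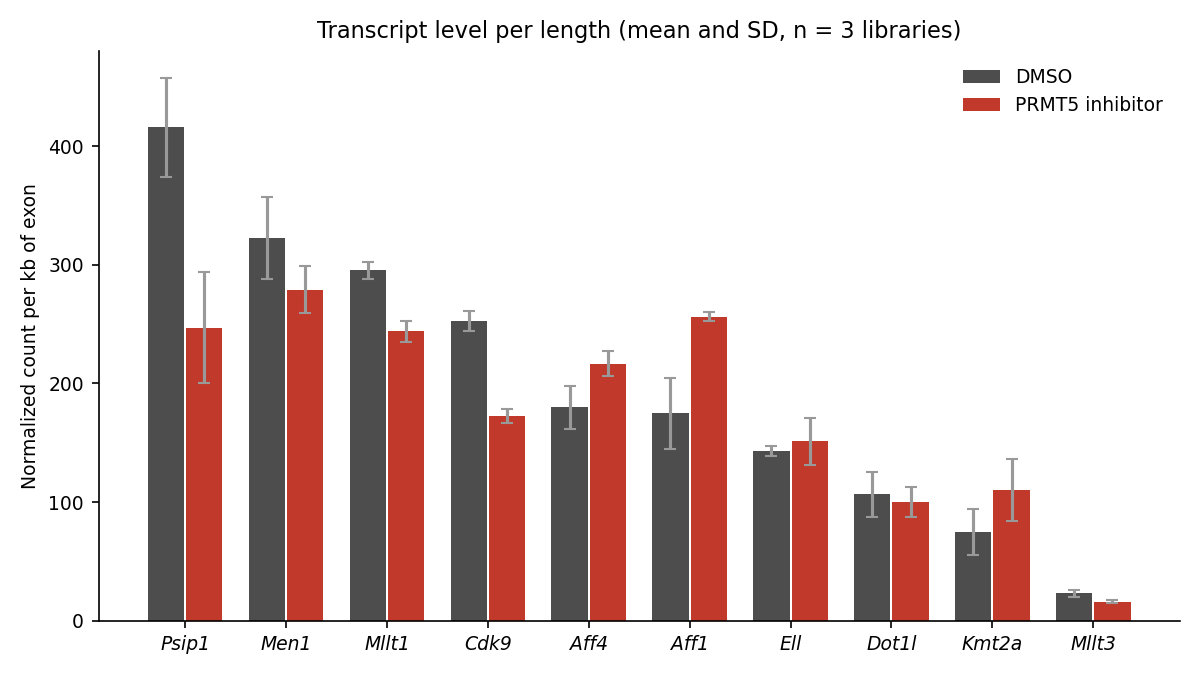
Normalized count per kilobase of exon (vertical axis, from 0) of the 10 genes, in the order of their DMSO means, with DMSO in grey and the inhibitor in red; bars are means and error bars the SD of 3 libraries. Psip1 drops from 416 to 247 and Aff1 goes from 175 to 256, so that these 2 bars have about the same height with the inhibitor.

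The ratio of Kmt2a to its paralogue Kmt2b, another MLL-type methyltransferase, was 1.04, 1.24 and 1.27 in DMSO libraries 1, 2 and 3 and 1.47, 1.83 and 1.75 in the inhibitor libraries. The log2 ratio was higher by 0.51 with the inhibitor and did not overlap between the groups (exact two-sided permutation p = 0.10, adjusted over 6 ratios 0.20). Kmt2b itself had 1039 ± 190 and 1079 ± 172 normalized counts and did not pass (limma adjusted p = 0.755). Of the 6 ratios compared, those of Aff1 to Aff4, Kmt2a to Kmt2b and Cdk9 to Hexim1 were free of overlap, and no ratio could go below 0.10 in a design of this size. Among single genes 56.0% did not overlap between the groups, and the share among ratios of other gene pairs was not computed.

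**Figure D5:**
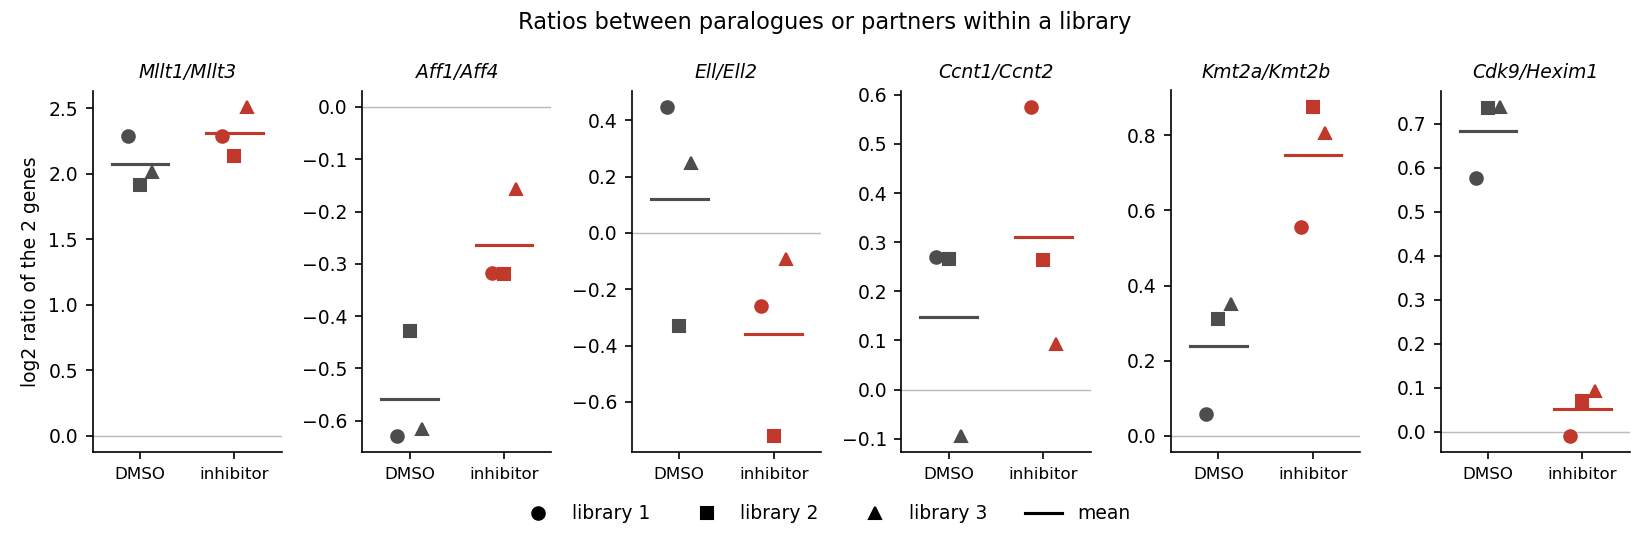
Log2 ratio of the 2 named genes within each library (vertical axis, a separate scale per panel), with DMSO in grey, the inhibitor in red, marker shape giving the library number and a line at the group mean. Aff1/Aff4 and Kmt2a/Kmt2b are higher and Cdk9/Hexim1 is lower with the inhibitor in all libraries, while the other 3 ratios overlap.

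Genes often named as targets of MLL fusions went in both directions. Of 27 listed, 23 were measured, of which 9 rose, 4 fell and 10 did not pass, with a median log2 fold change of 0.086. When genes had to have a mean of at least 100 normalized counts, 5 rose. Flt3, a growth factor receptor, fell from 8060 ± 763 to 3693 ± 28.5 normalized counts (limma adjusted p = 2.55e-06), and Myc from 4707 ± 116 to 2246 ± 224 (3.06e-06). Hmga2, a chromatin architecture protein, rose 8.84-fold, from 132 ± 72.5 to 1171 ± 44.8 (limma adjusted p = 5.02e-06), with DMSO values of 67.7, 210.7 and 119 in libraries 1, 2 and 3. Cpeb2, a regulator of translation, rose from 362 ± 72.6 to 859 ± 51.7 (limma adjusted p = 1.75e-05). All 5 measured HOXA genes of the list and their cofactor Meis1 are given here, a subset chosen after its values were seen. Hoxa9 rose from 2608 ± 247 to 3617 ± 164 (limma adjusted p = 0.00112), Hoxa7 from 405 ± 23.4 to 571 ± 29.2 (0.00113), Hoxa5 from 159 ± 14.9 to 274 ± 19.7 (0.000330) and Hoxa6 from 54.9 ± 9.46 to 93.1 ± 15.5 (0.00724). Hoxa10 had 324 ± 14.5 and 309.8 ± 13.1 (limma adjusted p = 0.625) and Meis1 had 1224 ± 45.3 and 1301 ± 96.3 (0.423), and neither passed.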

How the data were processed

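Poly-A RNA was sequenced from 3 DMSO and 3 inhibitor libraries, grouped and numbered by their titles. Per the submitters' processing notes, the tools were DESeq 1.16.0, HTSeq 0.6.0, TopHat2 2.0.10 and CASAVA 1.8.2, with no role given, and the build mm10; the sources used here give no annotation, strand setting or filter. The authors deposited a normalized signal, that is, gene read counts over a library size factor, called normalized count here. The values themselves show this: 100% were whole multiples of 1 step per library (tolerance 1e-06). Recovered reads were 11335948 to 19197912 per library, which sets the precision for low genes.

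The test was limma-trend (two-sided; limma version 3.58.1 under R 4.3.3), fitted to log2 of the normalized count plus a pseudocount of 1 for all 11644 genes. P-values were adjusted by Benjamini-Hochberg and called under 0.05. This scale understates changes of low genes. Folds are ratios of group means. No list was tested as a set. Ratios of paralogues or partners were tested by exact permutation over libraries. Alternatives were edgeR 4.0.16, DESeq2 1.42.0 and voom on recovered reads, other scalings, pseudocounts, filters, a replicate block and leaving out each library; edgeR called 5412 genes. The limma script was tested on simulated data in which far fewer genes changed than were called here. That test does not cover changes this widespread.

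The members and lists were chosen with earlier results of these data known. All members are named, and of each other list the 4 genes with the smallest adjusted p; other genes were chosen after their values were seen. Coordinates and exon lengths come from GENCODE M21 (mm10), promoter windows from RefSeq (GRCm38.p6), which matched 9 of the 10 members.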

Additional observations from a re-analysis of the deposited data

How the results depend on the processing

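The median log2 fold change of all genes stayed between -0.023 and 0.0060 under every setting, and Psip1, Cdk9, Aff1 and Mllt3 kept their direction and call in all 16 refits without a fold minimum. The 7 called members became 6 with edgeR or DESeq2, 4 to 8 with a library left out (4 without inhibitor library 2) and 1 with a 1.5-fold minimum; of these, the risen numbered 1 to 3 with a library left out, the lowest without DMSO library 1 or inhibitor library 2. The 5418 genes called in all became 2573 with the 1.5-fold minimum. The share of all genes called ranged from 35.6% (without inhibitor library 2) to 45.9% (without DMSO library 2), against 46.5% with all libraries. With a library left out, log2 fold changes ranged from -0.18 to 0.059 for Dot1l, -0.0045 to 0.18 for Ell, -0.061 to 0.20 for Kmt2b, with -0.0022 and -0.029 among them, -0.23 to 0.0031 for Ccnt2 and -0.069 to 0.19 for Snapc3, with -0.011 among them; of the values whose sign turned, none passed, and the cause was not tested. The highest level per kilobase in DMSO was 18.1 times the lowest with the union of exons and 14.3 times with the longest transcript, since the length of Mllt3 differs most between the measures.

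With the replicate number as a replicate block, 5932 genes and 8 members were called, the added member being Men1 (limma adjusted p = 0.0421). Kmt2a had a limma adjusted p of 0.000146 with the block, against 0.0277 without it. Kmt2d passed (limma adjusted p = 0.000599), and 4 genes of the MLL core list rose in place of 2. The labels do not say what libraries with the same number share. Their deviations from the group means correlated at 0.247, 0.0735 and 0.263 across 9100 genes. Libraries of different numbers correlated at -0.235 to -0.0157, so each library correlated best with its own number. Whether the numbers mark pairs was not tested. The mean difference of a paralogue ratio within numbered pairs equals the difference of group means by arithmetic, so the block cannot change it. Depth limits Mllt3 most among the members, with 150 to 368 reads per library.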

Other observations

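The row named Ctr9 ranked 48th of 11644 genes by mean normalized count, while the other 5 subunits of the PAF1 complex (Paf1, Cdc73, Leo1, Rtf1 and Wdr61) had DMSO means between 240.2 and 1243. Its libraries had 29858, 30307 and 31178 normalized counts in DMSO and 19597, 17085 and 15916 with the inhibitor. Ctr9 lies on chromosome 7 (111028951 to 111056377, plus strand, mm10). No other gene of GENCODE M21 overlaps it there, but the annotation used for the deposited counts is not given in the sources used here, so whether reads of another transcript are counted in this row was not tested.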
